A study of Mus musculus with 24 samples.

Results

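The genes described here make heme and begin its breakdown. They are Alas1, Alas2, Alad, Uros, Urod, Cpox, Ppox, Fech and Hmox1, and they were taken by name from the mRNA microarrays of the series. These 9 genes, of 36163 gene names on the array, were measured by 12 of its 55681 non-control probesets, with 2 probesets each for Alas1, Uros and Hmox1. Each of the 12 had 1 spot per array, was well above background on 15 of 15 arrays, and was never saturated.

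Heme is an iron-containing ring that carries oxygen in haemoglobin and electrons in the mitochondrial cytochromes. Its synthesis starts in mitochondria with aminolevulinate synthase, goes on in the cytosol, where Alad, Uros and Urod act, and returns to mitochondria for Cpox, Ppox and Fech. The first and rate-limiting step has a housekeeping enzyme, Alas1, which heme itself represses, and an enzyme of developing red cells, Alas2. Heme oxygenase 1, encoded by Hmox1, opens the ring to give biliverdin, carbon monoxide and iron, and is known for its induction by heme, hypoxia and oxidative stress.

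The study asked how morphine at 2 doses affects the hippocampus of stressed newborn mice. RNA came from C57BL/6 pups labelled male and killed on P9, and each array held the pooled hippocampi of 1 pup. The control group (Con, n = 5) was untreated and reared with the dam. From P5, pups of the MS2 (n = 5) and MS5 (n = 5) groups were separated from the dam in a warmer, breathed nitrogen for 1 min and then oxygen for 5 min in each apnea exposure, and received morphine at 2 mg/kg or 5 mg/kg just before it. No group received stress alone or morphine alone, so in MS2 versus Con and MS5 versus Con the drug and the stress protocol cannot be told apart. The labels do not give the litter. In pieces of tissue such as these, fewer cells of a type and less RNA per cell cannot be told apart. Values are log2 levels after background adjustment and quantile normalization, and a level of 1 probeset is not comparable with that of another.

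Some arrays stood apart. MS2 replicate 4 had a mean of 10.09 over 10 markers of hippocampal principal neurons, against 11.69 to 12.18 on the other 14 arrays. On it 9 of the 10 markers were below every other array, among them Neurod6 (10.02, against at least 13.03) and Slc17a7 (9.38, against at least 12.08). Prox1 was only just below (9.43, against at least 9.47). C1ql2 went the other way and was above every other array (8.43, against at most 8.005). The median correlation of MS2 replicate 4 with the other arrays was 0.9898, against 0.9955 to 0.9975. The array labelled MS5 replicate 9 went against its male label, with Xist at 11.34 (at most 6.08 elsewhere) and Y-linked genes at a mean of 6.17 (at least 9.21 elsewhere). Markers of the choroid plexus, the secretory tissue next to the hippocampus, had means of 9.84 on MS5 replicate 9 and 8.76 on MS5 replicate 14, against 11.40 to 12.70 on the rest. MS2 replicate 5 was dim, with a median spot signal of 50 against 99 to 126. The arrays lay on 2 slides, with 3 Con, 3 MS2 and 2 MS5 arrays on slide 1 and 2 Con, 2 MS2 and 3 MS5 arrays on slide 2. MS2 replicates 4 and 5 and MS5 replicates 9 and 14 were all on slide 2.

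The probes of the member with the widest spread, Alas2, and of the member with the lowest p, Alad, are shown first because the results below turn on them. The Alas2 probe lies at chrX:147004993-147005052 on the plus strand and the Alad probe at chr4:62172559-62172618 on the minus strand, both in the mm9 build as the scanner files give it. Capitals in the Alas2 probe mark the first stop codon, at base 40, in the frame read from its first base. The Alad probe, read from its second base, held no stop codon.
Alas2: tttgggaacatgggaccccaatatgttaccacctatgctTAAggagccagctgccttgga
Alad: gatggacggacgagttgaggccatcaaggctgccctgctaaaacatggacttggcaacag

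No member passed limma's test at an adjusted p under 0.05 in any comparison. The share of all probesets that met each rule is given beside the count of heme probesets. In MS2 versus Con, 4.17% of all probesets had an unadjusted p under 0.05, 0.0233% also changed by over 1.5 fold (the criterion of the study), 0.702% had groups that did not overlap, and 0% passed the adjusted test. Of the 12 heme probesets, 0 met any of these, including the unadjusted p. In MS5 versus Con the background shares were 3.9%, 0.228%, 0.828% and 0%, and the heme probesets again gave 0 by every rule. For MS5 versus MS2 they were 3.97%, 0.129%, 0.621% and 0%, and 1 heme probeset, that of Alad, had an unadjusted p under 0.05. It changed by less than 1.5 fold and its groups overlapped. The smallest adjusted p over all probesets was 0.9702, 0.6353 and 0.9999 in the 3 comparisons.

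The heme probesets had a median log2 difference of -0.02 in MS2 versus Con, -0.08 in MS5 versus Con and -0.01 in MS5 versus MS2, where the medians over all probesets lay at -0.0017, 4e-04 and 0.0012. In MS5 versus Con, 9 of 12 probesets and 7 of 9 genes were lower in MS5 by their means, without passing the test. In the other comparisons 6 of 12 were lower. MS5 versus Con and MS5 versus MS2 share the MS5 arrays, and MS2 versus Con and MS5 versus Con share the controls. The paper also tested gene sets in MS5 versus control on the same arrays. It lists porphyrin metabolism and a set named AHSP as lower, and heme biosynthesis as mixed. Those tests judge a set as a whole, while the tests here judge each probeset. The plot of differences shows the interval behind each value.

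**Figure D1:**
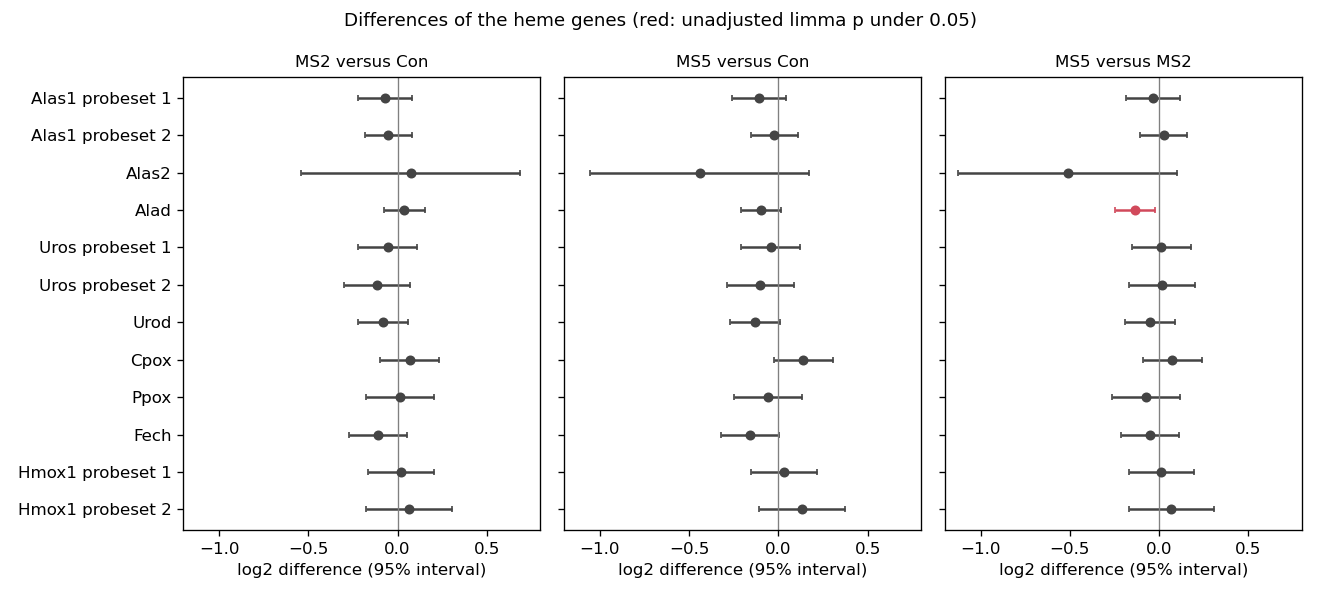
Log2 differences (x axis) of the 12 heme probesets (rows) in the 3 comparisons, as points with 95% intervals from limma over 15 arrays. The interval lies on 1 side of 0 for Alad in MS5 versus MS2 (-0.14), and the widest intervals are those of Alas2.

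Alas1, the housekeeping first enzyme, was measured by 2 probesets. Here and below, values follow the order of the replicate numbers, 15 to 19 in Con, 1, 3, 4, 5 and 7 in MS2, and 8, 9, 12, 13 and 14 in MS5. The first gave log2 levels of 14.04, 14.19, 14.16, 14.02 and 14.10 in Con. It gave 14.12, 14.03, 13.75, 14.20 and 14.06 in MS2, and 14.07, 13.96, 14.06, 13.89 and 14.00 in MS5. MS2 replicate 4 (13.75) was the lowest of all 15 arrays, and 3 of 5 MS5 arrays lay below the lowest control. The difference in MS5 versus Con was -0.11 (95% interval -0.26 to 0.04, limma p = 0.1533, adjusted p = 0.9999, exact permutation p = 0.0635). In MS2 versus Con it was -0.07 (-0.22 to 0.08), which became -6e-04 without MS2 replicate 4. The second Alas1 probeset differed by -0.02 (-0.16 to 0.11) in MS5 versus Con, and across the 15 arrays the levels of the 2 probesets had a Pearson r of 0.34.

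Alas2, the first enzyme in red cell precursors, varied most. In Con its levels were 11.59, 11.13, 9.73, 11.14 and 10.34, so that controls alone spanned the whole range of the 15 arrays, 1.86 on the log2 scale. In MS2 they were 10.78, 10.99, 10.73, 10.80 and 10.99, and in MS5 10.47, 10.35, 10.94, 10.15 and 9.81. The mean was 10.78 ± 0.74 (SD, n = 5) in Con, 10.86 ± 0.12 (n = 5) in MS2 and 10.34 ± 0.42 (n = 5) in MS5. The within-group SD of Alas2, 0.50, was larger than that of 98.4% of all probesets, against 29.4% to 82.9% for the other 11 heme probesets. Alas2 was 0.44 lower in MS5 than in Con by the means (interval -1.05 to 0.17, limma p = 0.1458, adjusted p = 0.9999, exact permutation p = 0.270), and every MS5 array lay inside the range of the controls. Against MS2 the MS5 arrays differed by -0.51 (-1.13 to 0.10, limma p = 0.09386, adjusted p = 0.9999, exact permutation p = 0.0318), and 4 of 5 MS5 arrays lay below the lowest MS2 array. In MS2 versus Con it was 0.07 (-0.54 to 0.69), and ran from -0.19 without Con replicate 17 to 0.27 without Con replicate 15. The difference in MS5 versus Con depended on which control was in it: it was -0.70, with an unadjusted p under 0.05, without Con replicate 17 and -0.24 without Con replicate 15.

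**Figure D2:**
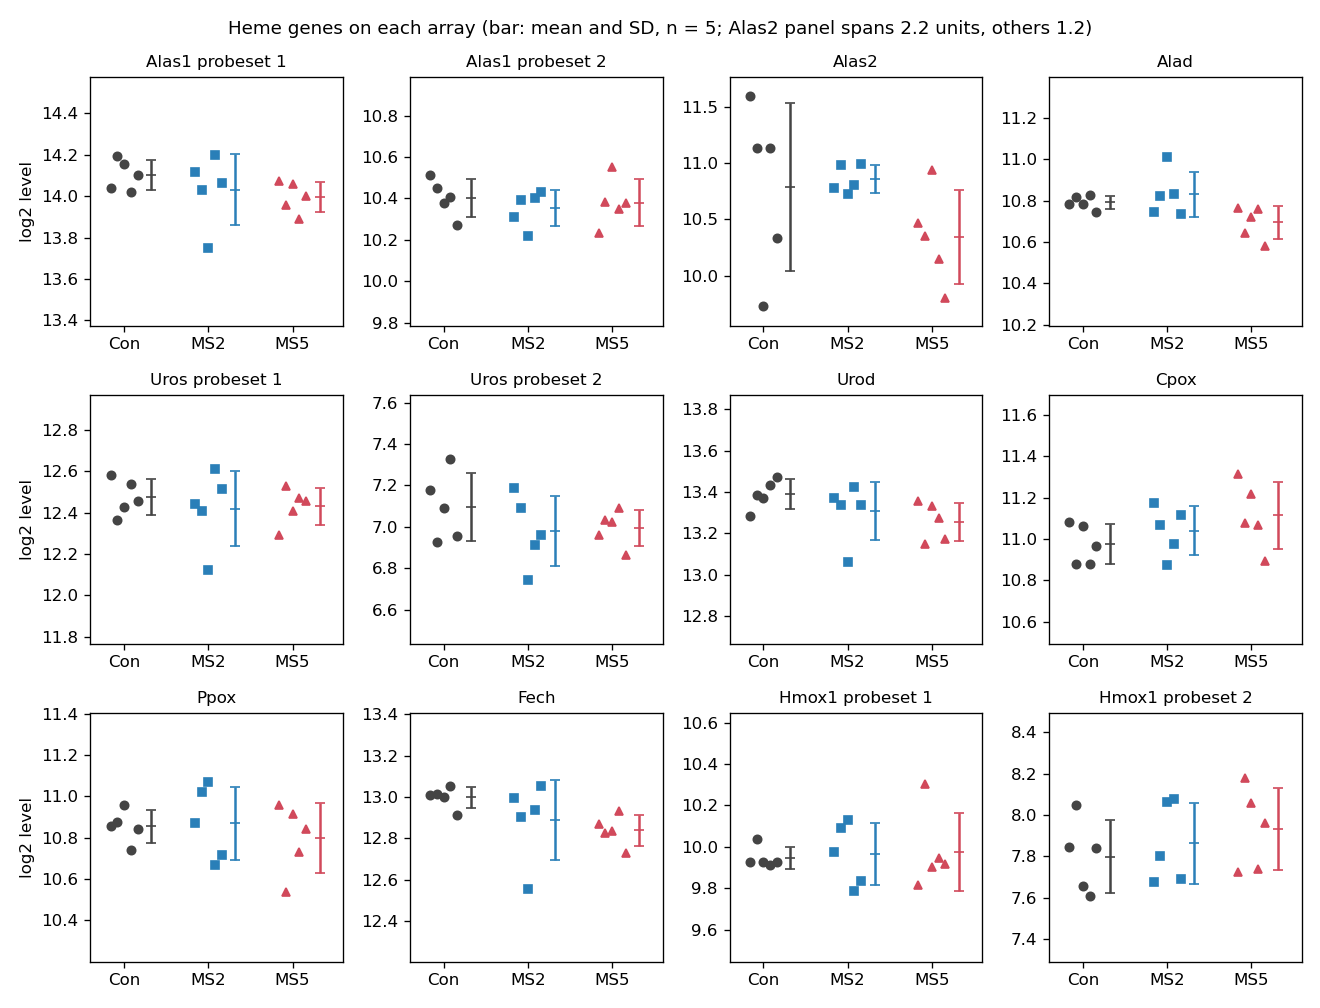
Log2 level (y axis) of each heme probeset on each array, by group (x axis), with the mean and SD of 5 arrays beside the points; the Alas2 panel spans a wider range than the others. Alas2 runs from 9.73 to 11.59 among controls alone, and MS2 replicate 4 is the low MS2 point of Alas1, Uros, Urod and Fech.

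Alas2 moved with the globin genes, which encode the protein chains of haemoglobin. Over 8 globin genes, the mean level ran from 11.41 (Con replicate 17) to 12.38 (Con replicate 15), the same arrays at which Alas2 was lowest and highest. Pearson's r between Alas2 and that mean was 0.98 and Spearman's rho 0.97 over 15 arrays (permutation p = 1e-05 for each, two-sided, the smallest that 100000 resamples can give). Without the arrays farthest from the median globin level, Con replicate 17 and MS5 replicate 14, r was 0.96. With each group's mean taken away r was 0.98, and within the slides it was 0.99 (n = 8) and 0.97 (n = 7). The other 8 members had r between -0.06 (Cpox) and 0.43 (Alad) with the same mean.

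The adult globin genes carried this relation. Hba-a1, Hba-a2, Hbb-b1, Hbb-b2 and Hbb-bs had r of 0.94, 0.96, 0.98, 0.98 and 0.97 with Alas2. These genes have near-identical copies that a probe may not tell apart, and none of their spots was saturated. The embryonic genes Hba-x (above background on 0 of 15 arrays), Hbb-bh1 and Hbb-y had r of -0.07, 0.0017 and 0.41. Among 25762 genes above background, the 5 whose deviations from their group means were most like those of Alas2 were Hbb-b2, Hbb-b1, Hbb-bs, Slc4a1, the anion exchanger of the red cell membrane, and Hba-a2, with r from 0.95 to 0.99 over 15 arrays. The globin genes had their own differences in MS5 versus Con, from -0.28 (Hba-a2) to -0.52 (Hbb-bs) among the adult genes, none with an unadjusted limma p under 0.05. With the mean globin level as a covariate, the Alas2 difference was 0.03 (-0.12 to 0.18) in MS5 versus Con, -0.09 (-0.24 to 0.05) in MS5 versus MS2 and 0.13 (-0.01 to 0.26) in MS2 versus Con. Whether the globin level reflects blood left in the tissue was not tested.

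**Figure D3:**
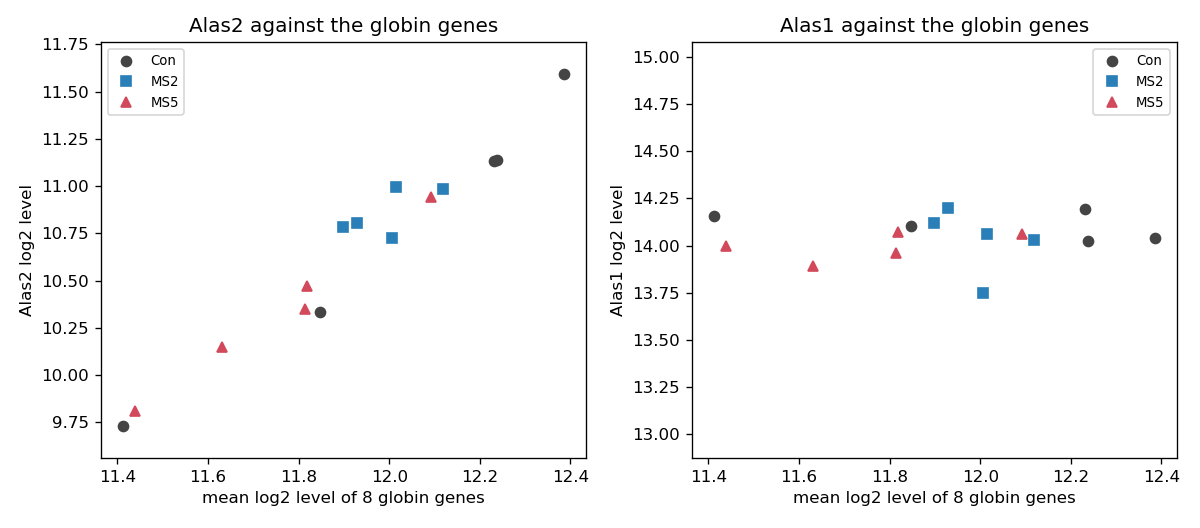
Log2 level of Alas2 (left) and Alas1 (right) against the mean log2 level of 8 globin genes on 15 arrays, with groups as symbols and both y axes spanning the same range. Alas2 is higher where the globin mean is higher (r = 0.98), and Alas1 has r = 0.05.

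Stretches upstream of 3 genes are shown because Alas1 and Alas2 catalyse the same step and had r of 0.05 and 0.98 with the globin mean. Of the 9 members, 7 had an entry in the RefSeq promoter table (GRCm38.p6). The 250 bases before the transcript start are given for Alas1 (chr9:106247955-106248204, minus strand), Alas2 (chrX:150547167-150547416, plus strand) and the beta globin gene Hbb-bt (chr7:103813924-103814173, minus strand), whose RefSeq transcript is the one assigned to the Hbb-b1 probe. Capitals mark matches, on either strand, to the GATA site AGATAA, its variant form with a different first letter, TGATAA, and the CACC box CCNCACCC, with overlapping matches run together.
Alas1: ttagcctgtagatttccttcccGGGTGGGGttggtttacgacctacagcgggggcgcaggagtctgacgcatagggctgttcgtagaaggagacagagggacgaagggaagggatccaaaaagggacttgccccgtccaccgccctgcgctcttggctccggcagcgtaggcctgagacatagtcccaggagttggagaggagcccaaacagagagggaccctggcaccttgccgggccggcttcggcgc
Alas2: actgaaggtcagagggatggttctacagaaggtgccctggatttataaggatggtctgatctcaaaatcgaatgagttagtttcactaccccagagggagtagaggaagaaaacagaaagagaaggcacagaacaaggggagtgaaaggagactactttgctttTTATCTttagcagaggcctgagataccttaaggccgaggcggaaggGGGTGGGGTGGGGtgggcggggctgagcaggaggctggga
Hbb-bt: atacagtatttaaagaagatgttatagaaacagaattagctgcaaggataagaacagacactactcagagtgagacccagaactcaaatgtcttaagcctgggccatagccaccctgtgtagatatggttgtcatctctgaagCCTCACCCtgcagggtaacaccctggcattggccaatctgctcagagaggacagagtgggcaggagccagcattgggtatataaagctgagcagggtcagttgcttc
Alas2 held 1 match to AGATAA, starting at position -86 from the transcript start, and 2 overlapping CACC boxes. Alas1 and Hbb-bt held 1 CACC box each and no match to the GATA motifs. Of 32851 promoters of the same length, 9.99% held AGATAA, 7.94% TGATAA and 14.9% CCNCACCC. The Alas1 stretch was 62.4% G and C with 16 CpG dinucleotides, the Alas2 stretch 51.2% with 4, and the Hbb-bt stretch 47.2% with 0. A match is a description of these letters only.

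Alad, which joins a pair of aminolevulinate molecules, was the heme gene with an unadjusted limma p under 0.05, in MS5 versus MS2. Its levels were 10.78, 10.82, 10.79, 10.83 and 10.74 in Con, 10.74, 10.82, 11.01, 10.83 and 10.74 in MS2, and 10.76, 10.64, 10.72, 10.76 and 10.58 in MS5. MS2 replicate 4 was the highest of the 15 arrays and MS5 replicate 14 the lowest, and 3 of 5 MS5 arrays lay below the lowest MS2 array. Between MS5 and MS2 Alad differed by -0.14 (interval -0.25 to -0.02, 0.91 fold, limma p = 0.02225, adjusted p = 0.9999, exact permutation p = 0.0635). The unadjusted p was over 0.05 without MS2 replicate 4 (difference -0.09), without MS5 replicate 9 (-0.12) or without MS5 replicate 14 (-0.11), and under it in the other 7 of 10 such fits. Without MS2 replicate 4, Urod (-0.11) and Fech (-0.13) were the heme genes with an unadjusted p under 0.05. In that fit 6.78% of all probesets passed, against 3.97% with all arrays. On slide 1 the Alad difference was -0.0058, not past that threshold, and on slide 2, which holds MS2 replicate 4, it was -0.27, past it. In MS5 versus Con it was -0.10 (-0.21 to 0.02, limma p = 0.08747, exact permutation p = 0.0238).

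The next cytosolic enzymes, Uros and Urod, close the ring and trim its side chains. Urod had levels of 13.28, 13.39, 13.37, 13.43 and 13.47 in Con, 13.37, 13.34, 13.06, 13.42 and 13.34 in MS2, and 13.36, 13.15, 13.33, 13.27 and 13.17 in MS5. MS2 replicate 4 was again the lowest array, and 3 of 5 MS5 arrays lay below the lowest control. Urod differed by -0.13 (-0.27 to 0.0078, limma p = 0.06243, exact permutation p = 0.0397) in MS5 versus Con and by -0.08 (-0.22 to 0.06) in MS2 versus Con, where it was -0.02 without MS2 replicate 4. The first Uros probeset differed by -0.04 (-0.21 to 0.12) in MS5 versus Con and -0.05 (-0.22 to 0.11) in MS2 versus Con, and its lowest array was MS2 replicate 4 at 12.12, against 12.29 to 12.61 on the rest. The second Uros probeset differed by -0.10 (-0.29 to 0.09) in MS5 versus Con and -0.12 (-0.30 to 0.07) in MS2 versus Con. Across the 15 arrays the levels of these 2 probesets had a Pearson r of 0.52.

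Of the last 3 enzymes, which work in mitochondria, Fech and Cpox had opposite signs. Fech, ferrochelatase, puts the iron into the ring. Its levels were 13.01, 13.02, 12.999, 13.05 and 12.91 in Con, 12.997, 12.90, 12.56, 12.94 and 13.05 in MS2, and 12.87, 12.83, 12.84, 12.94 and 12.73 in MS5. All but 1 of the MS5 arrays lay below the lowest control. The difference in MS5 versus Con was -0.16 (-0.32 to 0.0025, 0.90 fold, limma p = 0.05316, adjusted p = 0.9999, exact permutation p = 0.0159). With both arrays that stand apart left out (MS2 replicate 4 and MS5 replicate 9) it was -0.16, now with an unadjusted p under 0.05 and an estimate of the spread that no longer held MS2 replicate 4. In MS2 versus Con, Fech differed by -0.11 (-0.27 to 0.05), and by -0.03 without MS2 replicate 4.

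Cpox, which oxidises coproporphyrinogen, had levels of 11.08, 10.88, 11.06, 10.88 and 10.97 in Con, 11.17, 11.07, 10.88, 10.97 and 11.11 in MS2, and 11.31, 11.08, 11.22, 11.07 and 10.90 in MS5. Only 2 of 5 MS5 arrays lay above the highest control. The difference in MS5 versus Con was 0.14 (-0.03 to 0.30, limma p = 0.09157, exact permutation p = 0.127), and 0.17, past the unadjusted threshold, with the slide as a block. It was 0.09 without MS5 replicate 8 and 0.19, past the unadjusted threshold, without MS5 replicate 14. Ppox, the next enzyme, differed by -0.06 (-0.25 to 0.13) in MS5 versus Con, 0.0071 without MS5 replicate 9, its lowest array at 10.54. With 5 arrays against 5, the exact permutation test over 252 assignments cannot give a two-sided p below 0.007937, and 36 such tests were run on the heme probesets. Those under 0.05, without adjustment, were Alad, Urod and Fech in MS5 versus Con and Alas2 in MS5 versus MS2. The permutation test was not run over all probesets, so no share stands beside them.

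Hmox1, the inducible breakdown enzyme, did not differ by more than the spread between arrays in any comparison. Its first probeset had levels of 9.93, 10.04, 9.93, 9.91 and 9.93 in Con, 9.98, 10.09, 10.13, 9.79 and 9.84 in MS2, and 9.82, 10.30, 9.90, 9.94 and 9.92 in MS5. The highest array was MS5 replicate 9, whose Xist and Y-linked genes went against its label, and the other 4 MS5 arrays lay between 9.82 and 9.94. The differences were 0.02 (-0.16 to 0.20) in MS2 versus Con and 0.03 (-0.15 to 0.21, limma p = 0.7212, exact permutation p = 0.873) in MS5 versus Con, and the latter was -0.05 without MS5 replicate 9. The second probeset gave 0.13 (-0.11 to 0.37, limma p = 0.2598, exact permutation p = 0.278) in MS5 versus Con. The upper 95% limits of the fold change in MS5 versus Con were 1.16 and 1.29 for the first and second probeset. The 5 genes most like Hmox1 in their deviations from group means were Lbx1, Wdr92, D930048G16Rik, Slc5a3 and Pgap1, with r from 0.83 to 0.88 over 15 arrays.

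The members did not vary as 1 group. With group means taken away, the closest pairs over 15 arrays were Alas1 with Urod (r = 0.76), Urod with Fech (r = 0.69) and Uros with Fech (r = 0.66), as a description over 36 pairs. Without MS2 replicate 4 they were 0.52, 0.31 and 0.24. Uros and Ppox ran in opposite directions (r = -0.79), also without that array (r = -0.77). MS2 replicate 4 was the lowest or highest of its group for 9 of 9 genes, the lowest of all 15 arrays for Alas1, Uros, Urod, Cpox and Fech, and the highest for Alad and Ppox. The part of its low neuron markers in these values was not tested.

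**Figure D4:**
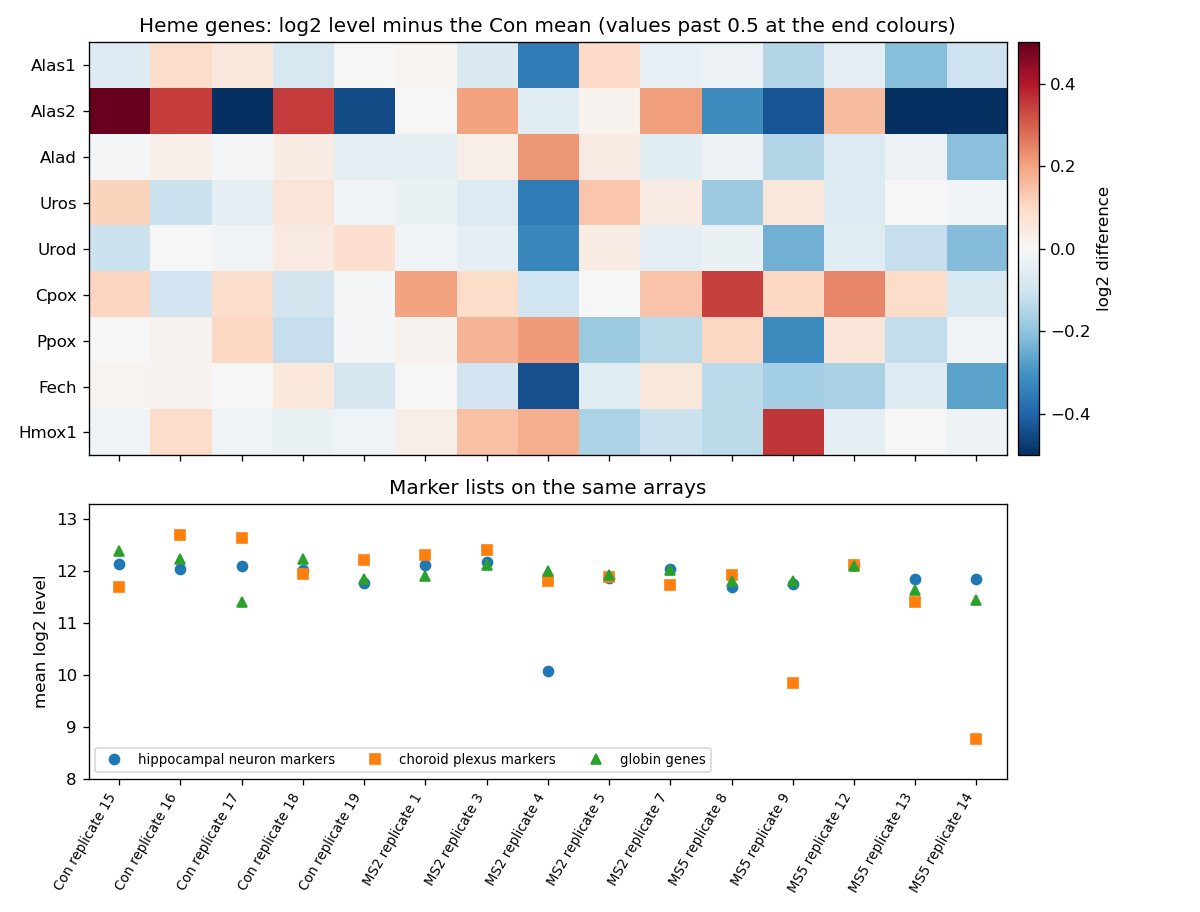
Top, log2 level of the 9 heme genes (rows) minus the Con mean on each of 15 arrays (columns), in colour, with values beyond 0.5 at the end colours; bottom, the mean log2 level of 10 hippocampal neuron markers, 10 choroid plexus markers and 8 globin genes on the same arrays. MS2 replicate 4 has low Alas1, Uros, Urod and Fech and a neuron marker mean of 10.09, and MS5 replicates 9 and 14 have choroid plexus means of 9.84 and 8.76.

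The choroid plexus list was lower in MS5, with 9 of 10 genes at an unadjusted limma p under 0.05 against Con (median -1.40) and 7 of 10 against MS2 (median -1.17). The paper names several of these genes as lower in MS5 on the same arrays, so these counts are not a separate test. The list mean was lowest on MS5 replicate 14 (8.76) and MS5 replicate 9 (9.84). With the mean of that list as a covariate, the differences in MS5 versus Con were -0.04 for Alad, -0.05 for Urod and -0.11 for Fech, and 0.26 for Cpox (0.09 to 0.44). Cpox then differed by 0.18 (0.01 to 0.35) between MS5 and MS2. Both Cpox values had an unadjusted limma p under 0.05, and those of the other heme genes did not. Of all probesets, 2.28% passed in MS5 versus Con and 3.23% in MS5 versus MS2 in this fit. The covariate was itself lower in MS5, so it overlaps with the group difference that it adjusts. The other marker lists did not separate MS5 from Con at the unadjusted p, with 0 of 10 hippocampal neuron, 0 of 5 astrocyte, 0 of 5 oligodendrocyte and 0 of 5 endothelial genes. Of 9 microglia and macrophage genes 1, Cd163, had a p under 0.05.

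Hmox2, the constitutive heme oxygenase, differed by -0.08 (-0.25 to 0.08) in MS5 versus Con. The biliverdin reductases differed by -0.0086 (Blvra) and -0.07 (Blvrb). None of these 3 had an unadjusted limma p under 0.05 in any comparison. Over 72 genes in 6 related lists (other enzymes, mitochondrial transport and iron-sulfur assembly, heme uptake and export, heme sensors and regulators, NRF2 targets and iron handling), 1.39% had a p under 0.05 in MS2 versus Con, 4.17% in MS5 versus Con and 5.56% in MS5 versus MS2, against 4.17%, 3.9% and 3.97% over all probesets. None passed the adjusted test.

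Hmox1 is a classic target of the transcription factor NRF2 and is repressed by the heme sensor BACH1. Of 10 other NRF2 targets, 0 had an unadjusted limma p under 0.05 in any comparison, with medians of -0.02, -0.04 and -0.03. Of 17 heme sensors and regulators 1 was higher in MS2 versus Con, Nfe2l1 (0.14, limma p = 0.02115, exact permutation p = 0.0556). Of 11 uptake and export genes, Cd163, the haemoglobin scavenger receptor, was higher in MS5 versus Con (0.14, limma p = 0.02874, exact permutation p = 0.0397), but it was well above background on only 5 of 15 arrays.

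Iron handling genes supply and store the metal that Fech uses. Of 13 such genes, 2 were lower in MS5 versus Con at the unadjusted p, Hfe, a partner of the transferrin receptor (-0.45, limma p = 0.008064, exact permutation p = 0.0238), and Heph, a copper enzyme that oxidises iron for export (-0.43, limma p = 0.01488, exact permutation p = 0.0635). Against MS2, Heph (-0.39, limma p = 0.02636, exact permutation p = 0.0714) and Steap3, an endosomal ferrireductase (-0.20, limma p = 0.03316, exact permutation p = 0.0873), were lower in MS5. With the choroid plexus mean as a covariate these became -0.21 (-0.55 to 0.12) for Hfe, -0.10 for Heph in both comparisons and -0.09 (-0.28 to 0.10) for Steap3, and none had an unadjusted p under 0.05. When 1 array was left out, Hfe and Heph in MS5 versus Con kept an unadjusted p under 0.05 in 10 of 10 fits. Against MS2, Heph did in 6 of 10 and Steap3 in 4 of 10. With the globin mean as a covariate, Hfe (-0.50) and Heph (-0.46) in MS5 versus Con kept it. Against MS2, Heph (-0.41) kept it and Steap3 (-0.18) did not.

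Of 21 erythroid genes measured, 2 were lower in MS5 versus Con at the unadjusted p, Slc4a1 (-0.40, limma p = 0.02959, exact permutation p = 0.111) and Trim10, a gene of terminal red cell development (-0.21, limma p = 0.0007377, exact permutation p = 0.007937), whose MS5 arrays all lay below the controls. Against MS2, Hbb-bs (-0.59, limma p = 0.04619, exact permutation p = 0.0159) and Trim10 (-0.11, limma p = 0.03987, exact permutation p = 0.0159) were lower in MS5. Their adjusted p was 0.9999. Over all probesets the unadjusted shares were 3.9% and 3.97%. When 1 array was left out, Trim10 in MS5 versus Con kept an unadjusted p under 0.05 in 10 of 10 fits, Slc4a1 (-0.54 to -0.30) in 5 of 10, and Hbb-bs and Trim10 against MS2 in 3 of 10 each. With the choroid plexus mean as a covariate, Trim10 in MS5 versus Con (-0.17, -0.30 to -0.04) kept an unadjusted p under 0.05, and Slc4a1 (-0.31, -0.75 to 0.14), Hbb-bs (-0.47, -1.17 to 0.22) and Trim10 against MS2 (-0.08, -0.20 to 0.05) did not. With the globin mean as a covariate, Slc4a1 differed by -0.13 and Trim10 by -0.18 in MS5 versus Con, and Hbb-bs, itself 1 of the genes in that mean, by -0.19 against MS2. Each of these kept an unadjusted limma p under 0.05, and Trim10 against MS2 (-0.08) did not. The mean of the list ran from 8.91 to 9.40 in Con, 9.16 to 9.42 in MS2 and 8.93 to 9.26 in MS5, so that the groups overlapped.

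**Figure D5:**
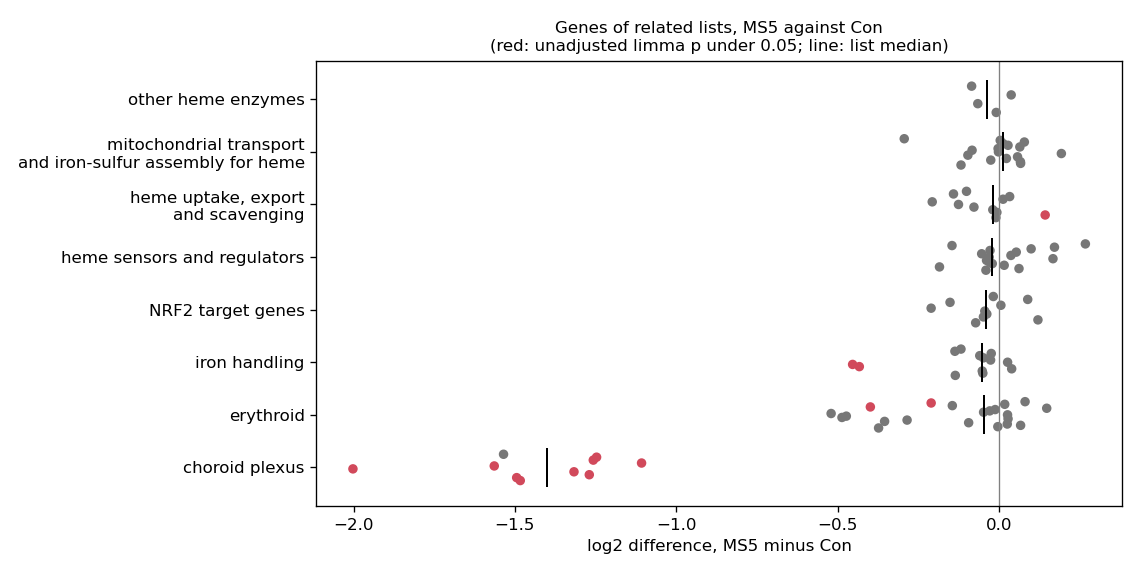
Log2 difference in MS5 versus Con (x axis) of each gene in 8 lists (rows), with the list median as a line and genes with an unadjusted limma p under 0.05 in red. The heme lists center near 0, and the choroid plexus list lies at a median of -1.40.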

How the data were processed

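Agilent mouse mRNA arrays of 15 hippocampal RNA samples were used; the 9 miR arrays were not used here. The authors adjusted background intensities (normexp) and quantile normalized them, and deposited log2 values. From the deposited scanner intensities, normexp with an offset of 50 and quantile normalization gave the same values to within 4.999e-09. Groups came from the sample labels. Differences were tested with limma 3.58.1 in R 4.3.3 (lmFit and eBayes, 3 groups in 1 fit, no covariate, Benjamini-Hochberg adjustment over 55681 probesets), after a check on simulated data. Where a gene had several probesets, the one above background on most arrays, then the brightest, stood for it. Every member was named, and of the related lists the heme enzymes, the globins and genes with an unadjusted p under 0.05, except that the choroid plexus genes are given as a list and some genes are not reported here. Of 138 genes in the lists, 136 were on the array, 6 of them matched by transcript. Members and lists were chosen with earlier results of these data known. The number of arrays limits the precision. Pups were separate animals, with litters not given. Alternatives were the background offset, scaling, a filter on dim probes, slide, array weights, 2-group fits and leaving out arrays. Added after seeing the data were within-slide correlations, leaving out both arrays that stand apart, and the globin and choroid plexus means as covariates.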

Additional observations from a re-analysis of the deposited data

Results flagged for a closer look

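Of 36 sets of 5 arrays (12 heme probesets in 3 groups), 3 held an array whose gap to its nearest neighbour was over 0.71 of the range of its group (Dixon's 95% value for 5 samples), where chance gives about 5% of sets. Urod was lowest on MS2 replicate 4, at 13.06 against 13.34 to 13.42 on the other MS2 arrays, and that array also had the low hippocampal neuron markers. The first Hmox1 probeset was highest in Con on replicate 16, at 10.04 against 9.91 to 9.93 on the other controls. It was highest in MS5 on replicate 9, at 10.30 against 9.82 to 9.94, the array with Xist signal.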

How the results depend on the processing

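The number of the 12 heme probesets with an unadjusted limma p under 0.05 was 0 in MS2 versus Con under every alternative run. Of all probesets, 2.93% to 7.49% passed there. In MS5 versus Con (0 in the report) it was 1 with the slide as a block (Cpox, where 4.4% of all probesets passed). With array weights it was 4 (Alas1, Alad, Urod and Fech, where 6.42% did). With only the 2 groups compared it was 3 (Alad, Urod and Fech, where 5.76% did). It was 1 with both arrays that stand apart left out (Fech, 5.71%) and 1 with the choroid plexus mean as a covariate (Cpox, 2.28%). When 1 array was left out it was 0 to 1, where 2.7% to 5.29% of all probesets passed. It was 1 without Con replicate 15, 17 or 19 or MS5 replicate 8, 13 or 14. In MS5 versus MS2 (1 in the report) it was 0 without the background offset (4.06% of all probesets) and 0 with the scanner's processed signal (3.05%). It was 0 on slide 1 alone (8.3%), 0 with the globin mean as a covariate (3.01%) and 2 with array weights (9.69%). When 1 array was left out it was 2 without MS2 replicate 4 (6.78%) or MS5 replicate 12 (4.8%). It was 0 without MS5 replicate 9 (2.76%) or MS5 replicate 14 (3.05%), and 1 in the other such fits. With only the 2 groups compared it stayed at 1 (3.28% of all probesets), but the gene was Alas2 and not Alad. The causes were not tested. Of 621 differences of single members recomputed, 588 kept their side of the threshold, 23 passed it newly and 10 no longer passed it. The sign changed in 47, and 0 of these passed the threshold in either setting. The correlation of Alas2 with the globins stayed between 0.96 and 0.99. No paired analysis was possible because the replicate numbers of the 3 groups do not overlap. With 5 arrays a group, the intervals of the heme genes other than Alas2 reached about 0.1 to 0.2 on either side, so differences of that size or smaller could be missed.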
